A study of Mus musculus with 6 samples.

Results

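The interferon response and RNA sensing genes described here are 35 mouse genes, listed by symbol, that cells switch on when interferon or foreign RNA is sensed. Their symbols were matched to Ensembl identifiers through the GENCODE M21 annotation of GRCm38. All 35 had a row among the 28293 genes of the count files. The series measured polyadenylated RNA in 6 libraries of a cultured mouse dermal fibroblast line, 3 labelled Lap2alpha KO (called KO) and 3 labelled WT. LAP2alpha, a product of the gene Tmpo, is a lamina-associated polypeptide without a membrane anchor that binds A-type lamins inside the nucleus. Both groups were cultured in serum-supplemented DMEM with penicillin and streptomycin, and the labels name no interferon, virus or other agent in either. The sources used here do not give the strain, the way the knockout was made, the number of clones or whether replicates were separate cultures. The p-values therefore measure only the spread between these libraries, and a difference between lines or clones cannot be told apart from the loss of LAP2alpha.

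Cells read double-stranded RNA with the helicases RIG-I (gene Ddx58) and MDA5 (Ifih1), which signal through the mitochondrial adaptor MAVS and the factor IRF3 to switch on interferon-beta. Secreted interferon then binds the receptor IFNAR, the kinases JAK1 and TYK2 act on STAT proteins, and STAT2 joins IRF9 in the complex ISGF3, which binds interferon-stimulated response elements in promoters. Interferon-gamma acts through its own receptor, JAK2 and a STAT dimer that binds gamma-activated sites. Fibroblasts carry both receptors and are a standard cell for measuring this response, and many of the induced genes encode the sensors and signalling proteins themselves.

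KO libraries held 25768678 to 27281473 counts and WT libraries 22159339 to 26553616. Levels are given as CPM, a count divided by its library's total and multiplied by 1e+06. In such bulk samples a smaller share of expressing cells and less RNA per cell cannot be told apart. The targeted gene Tmpo had 135, 122 and 131 CPM in KO libraries, against 254, 249 and 252 CPM in WT libraries, a log2 fold change of -1.04 with SE 0.0549 (edgeR, adjusted p = 4.9e-08). Its count pools every LAP2 isoform, so the alpha form was not measured alone. All 12 fibroblast markers had a row, and their summed level was 25840 to 27430 CPM in KO libraries and 8842 to 9624 CPM in WT libraries. Much of that sum in KO was collagen RNA (Col1a1, Col1a2 and Col3a1), and the markers did not all move alike: 9 were called higher in KO, Thy1 was called lower and Fn1 and P4hb were not called. Of 12 leukocyte markers 6 had a row, and they summed to 9.93 to 12.3 CPM in KO and 4.34 to 5.39 CPM in WT. Most of this was Cd14 and Csf1r, both called higher in KO, by 1.74-fold and 10.2-fold. Cd68 was not called, and the pan-leukocyte gene Ptprc had 0 counts in KO and 1 in WT. Endothelial markers summed to 4.5 to 4.53 CPM in KO and 1.5 to 1.94 CPM in WT, mostly Vwf in KO and Cdh5 in WT. Keratinocyte markers summed to 3.36 to 5.06 CPM in KO and 4.63 to 6.63 CPM in WT, mostly Krt10, which was called lower in KO. Melanocyte markers summed to 3.65 to 5.13 CPM in KO and 2.52 to 4.47 CPM in WT, where Mitf was called higher in KO and Dct lower. The part of these markers in the results that follow was not tested.

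The response was higher in KO for most members. The members were chosen with earlier results of these data known, so the counts below are descriptions and not an independent test. Called means an edgeR quasi-likelihood p under 0.05 after Benjamini-Hochberg adjustment over all 15081 tested genes. Of the 35 members 29 were called higher in KO, 1 was called lower (Samhd1), 3 were not called (Oasl1, Eif2ak2 and Xaf1) and 2 (Oas2 and Oas3) had too few reads to be tested. Calls were common in this comparison: 75.1% of all tested genes were called, 37.7% of all being higher and 37.5% lower in KO. The median log2 fold change, KO over WT, was 1.71 over the 33 tested members and 0.01 over all tested genes. Called increases of at least 2-fold were found for 25 members, against 16.7% of all tested genes, and of at least 4-fold for 13 members, against 6.54%. When the test asked for a change of more than 1.5-fold, 27 members were called higher and 0 lower, against 20.5% higher and 16.8% lower over all tested genes.

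The low-count filter bears on all of these counts. Irf7, Oas1a, Mx1, Mx2, Ifi44 and Usp18 passed it only through their KO libraries, so a difference was built into their entry. The other 27 tested members passed it in the WT libraries alone, and of these 23 were called higher, 1 lower and 3 not called. Of all 13795 genes that pass in WT alone, 34.7% were called higher and 40.9% lower. Called increases of at least 2-fold were found for 19 of the 27 members, against 12.1% of those genes, and of at least 4-fold for 7, against 3.1%. The test against 1.5-fold called 21 of the 27 higher, against 16.8%, and their median log2 fold change was 1.39. The 35 members together took 698 to 724 CPM in KO libraries and 383 to 386 CPM in WT libraries. All KO libraries lay above all WT libraries for 31 of the 35 members and below them for 1. Those 31 include the untested Oas2 and Oas3 and the members that passed the filter only through KO. Over all tested genes the shares were 42.2% above and 34.6% below, so the sets are not alike. Within the WT group, replicate 1 had the lowest CPM for 24 of the 33 tested members (72.7%), against 42.5% of all tested genes, and leaving it out left the same 29 members called higher.

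**Figure D1:**
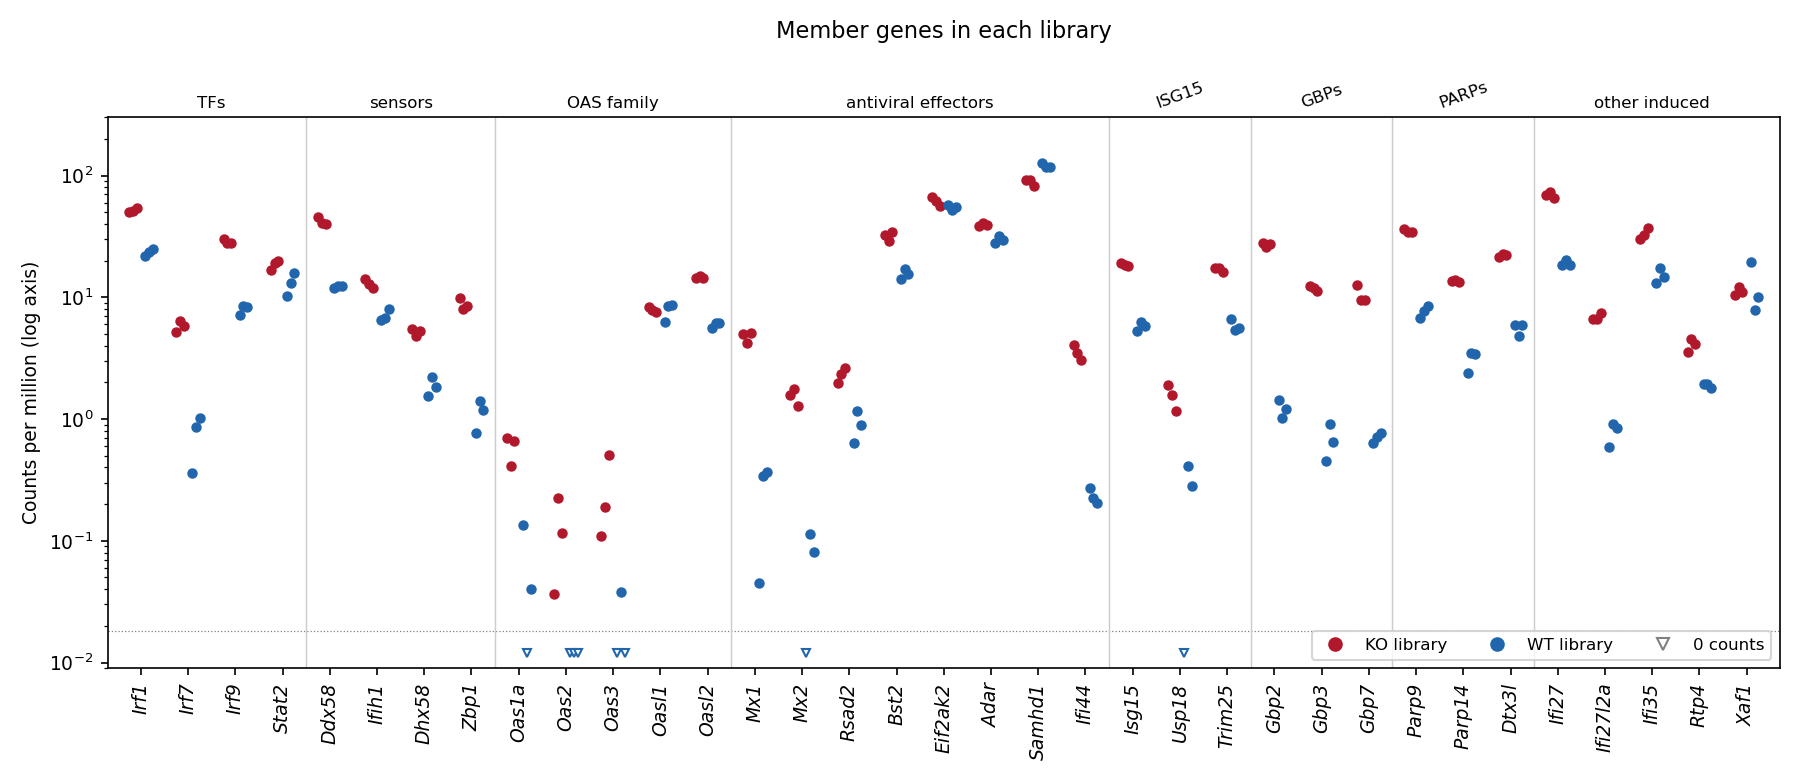
Each point is 1 library's level of a member gene in CPM on a log axis, with KO at the left and WT at the right of each gene and genes grouped by role; open triangles mark 0 counts. KO points lie above all WT points for 31 of the 35 genes, and Samhd1 is the gene with KO below WT.

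Promoter sequences are shown for 6 members: Isg15, the 3 guanylate-binding protein genes, Oas1a and Eif2ak2. Isg15 held the most matches to an interferon motif, and the guanylate-binding protein genes rose most as a group. Oas1a and Eif2ak2 carry alike matches. Oas1a passed the low-count filter only through its KO libraries, so its call cannot be set against that of Eif2ak2. The rule that chose the genes did not use sequence. It did list genes known to respond to interferon, so the shares below describe that list and not the comparison of KO with WT. RefSeq promoter windows of GRCm38.p6, each running from 250 bases before to 50 after an annotated start, were found for 24 of the 35 members. Mx1, Mx2, Oas2, Ifi27, Ifi27l2a, Zbp1, Usp18, Parp9, Parp14, Rtp4 and Dhx58 were not searched. The windows found were searched on both strands for GAAANNGAA, the core repeat of the interferon-stimulated response element. They were also searched for TTCNNNGAA, the gamma-activated site core, which reads the same on both strands. Overlapping matches were counted. The response element core was present for 15 of the 24 members (62.5%), against 2638 of all 27025 genes with a window (9.76%), and for 31 of 53 further interferon-induced genes listed for the pathway (58.5%). The gamma-activated core was present for 8 of the 24 members (33.3%), 10 of the 53 further induced genes (18.9%) and 9.55% of all genes. These are matches of letters and were not tested for binding. In the windows below, written 5′ to 3′ along the gene, capitals mark the matches to the response element core.
Isg15, chr4:156200769-156201068, minus strand: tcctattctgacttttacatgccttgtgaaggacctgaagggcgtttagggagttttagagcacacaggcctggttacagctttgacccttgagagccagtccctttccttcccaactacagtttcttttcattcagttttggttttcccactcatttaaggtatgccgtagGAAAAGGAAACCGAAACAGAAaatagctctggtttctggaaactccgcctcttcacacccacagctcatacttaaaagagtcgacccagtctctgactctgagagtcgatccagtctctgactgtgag
Gbp2, chr3:142620413-142620712, plus strand: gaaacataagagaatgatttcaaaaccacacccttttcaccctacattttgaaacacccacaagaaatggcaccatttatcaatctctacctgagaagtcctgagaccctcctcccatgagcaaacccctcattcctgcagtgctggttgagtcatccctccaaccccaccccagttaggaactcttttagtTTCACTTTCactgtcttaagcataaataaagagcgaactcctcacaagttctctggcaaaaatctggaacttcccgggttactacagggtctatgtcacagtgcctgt
Gbp3, chr3:142559794-142560093, plus strand: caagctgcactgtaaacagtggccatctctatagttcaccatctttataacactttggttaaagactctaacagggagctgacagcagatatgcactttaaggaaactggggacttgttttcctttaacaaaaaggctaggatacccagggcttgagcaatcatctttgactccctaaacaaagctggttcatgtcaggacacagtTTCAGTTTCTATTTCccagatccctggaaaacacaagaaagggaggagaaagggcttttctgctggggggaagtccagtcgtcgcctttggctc
Gbp7, chr3:142530086-142530385, plus strand: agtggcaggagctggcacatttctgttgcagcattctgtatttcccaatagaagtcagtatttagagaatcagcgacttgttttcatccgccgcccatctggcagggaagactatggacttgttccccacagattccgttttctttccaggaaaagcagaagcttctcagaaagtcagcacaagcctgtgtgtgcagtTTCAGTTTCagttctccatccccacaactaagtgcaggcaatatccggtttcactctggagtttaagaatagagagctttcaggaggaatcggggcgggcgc
Oas1a, chr5:120907476-120907775, minus strand: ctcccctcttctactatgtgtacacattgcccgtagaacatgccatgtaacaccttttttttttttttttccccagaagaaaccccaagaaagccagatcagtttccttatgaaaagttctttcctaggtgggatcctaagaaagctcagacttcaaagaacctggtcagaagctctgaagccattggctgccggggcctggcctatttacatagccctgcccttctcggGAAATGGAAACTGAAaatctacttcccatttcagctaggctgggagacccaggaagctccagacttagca
Eif2ak2, chr17:78882523-78882822, minus strand: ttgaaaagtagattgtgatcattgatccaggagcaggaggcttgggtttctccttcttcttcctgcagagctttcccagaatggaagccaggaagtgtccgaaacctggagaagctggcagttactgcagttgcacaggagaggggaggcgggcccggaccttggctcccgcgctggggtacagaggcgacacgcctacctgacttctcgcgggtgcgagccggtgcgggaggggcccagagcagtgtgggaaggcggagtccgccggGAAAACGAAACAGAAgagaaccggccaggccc

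Isg15 holds 3 overlapping matches, from base -78 to base -58 relative to its start, more than any other member's window. The guanylate-binding protein genes Gbp2, Gbp3 and Gbp7, neighbours on chromosome 3, carry matches on the minus strand at similar distances, from -58 to -50 in Gbp2, from -44 to -30 in Gbp3 and from -52 to -44 in Gbp7. Oas1a has a pair of overlapping matches from -20 to -6. Eif2ak2, which was not called, has the same arrangement after its start, from 19 to 33. Among the other members that were not called, Oasl1 and Xaf1 had no match to either core in their windows, and Samhd1, the member that fell, had a gamma-activated core only, as did Irf1 and Ifi35. Irf7, Irf9, Oasl2 and Dtx3l had no match to either core in these windows, and all 4 were called higher.

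**Figure D2:**
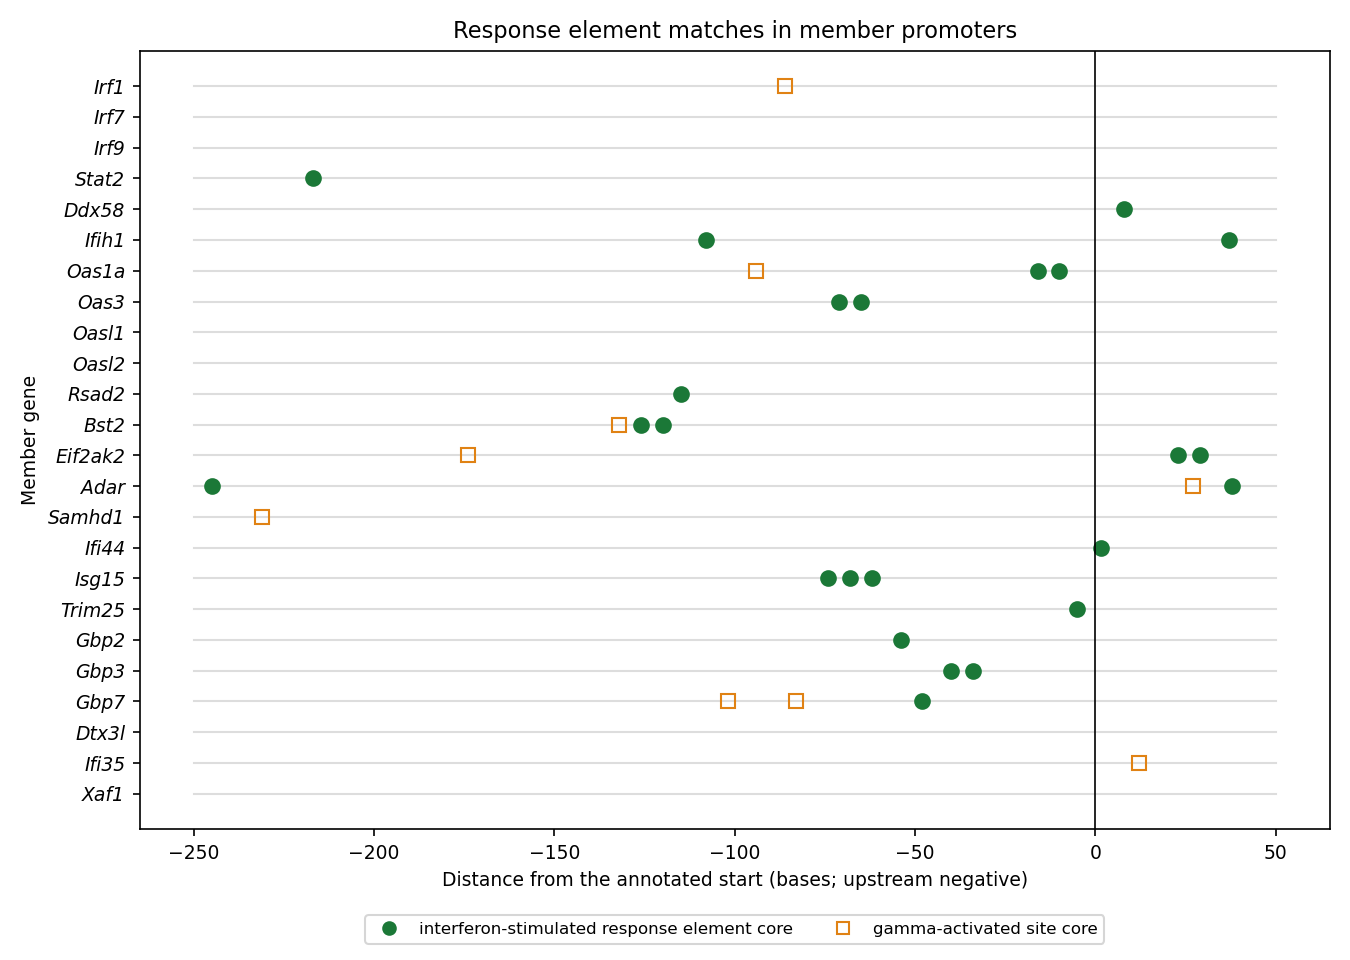
Matches in the promoter windows of 24 members, by distance in bases from the annotated start; filled circles are response element cores, open squares gamma-activated site cores, and windows of 1 gene share a line. In Isg15, Gbp2, Gbp3 and Gbp7 the response element cores lie between -78 and -30.

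All 4 transcription factor genes of the list were called higher in KO, against 37.7% of all tested genes. Irf1, which encodes a factor that binds response elements on its own, had 50.1, 51.1 and 54.3 CPM in KO libraries, against 21.9, 23.5 and 24.9 CPM in WT libraries. Irf7, the factor that amplifies interferon-alpha production, had 5.17, 6.33 and 5.78 CPM in KO libraries, against 0.361, 0.866 and 1.01 CPM in WT libraries. The groups were apart for both genes, and WT replicate 1 was the lowest library for Irf7. Irf7 passed the low-count filter only through its KO libraries, so a difference was built into its entry. Irf7 (chromosome 7, 141262706 to 141266481, minus strand) rose 7.15-fold, with a log2 fold change of 2.84 with SE 0.245 (edgeR, adjusted p = 1.9e-06), and Irf1 rose 2.1-fold. The components of ISGF3 rose by different amounts. Irf9 had 29.9, 27.8 and 27.7 CPM in KO libraries, against 7.17, 8.55 and 8.31 CPM in WT libraries, a log2 fold change of 1.75 with SE 0.0846 (edgeR, adjusted p = 2.6e-08). Stat2 had 16.8, 19.3 and 19.8 CPM in KO libraries, against 10.2, 13.2 and 15.8 CPM in WT libraries. Its highest WT library lay just under its lowest KO library, and its log2 fold change of 0.43 with SE 0.134 (edgeR, adjusted p = 0.014) did not pass the test against 1.5-fold (adjusted p = 1). Without WT replicate 1 the log2 fold change of Stat2 was 0.26, still called.

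The 4 RNA and nucleic acid sensor genes among the members were called higher as well, against 37.7% of all tested genes. The wider sensing list described below was divided, with 11 higher and 11 lower. Ddx58 (RIG-I; chromosome 4, 40203773 to 40239828, minus strand) had 45.3, 40.5 and 40.1 CPM in KO libraries, against 11.8, 12.3 and 12.4 CPM in WT libraries, a log2 fold change of 1.71 with SE 0.0721 (edgeR, adjusted p = 1.1e-08). Ifih1 (MDA5), its partner for long double-stranded RNA, had 14.1, 12.8 and 11.8 CPM in KO libraries, against 6.45, 6.82 and 8.07 CPM in WT libraries. Dhx58, which encodes LGP2, a helicase that lacks signalling domains and modulates the other helicases, had 5.5, 4.79 and 5.32 CPM in KO libraries, against 1.53, 2.22 and 1.82 CPM in WT libraries. Every KO library exceeded every WT library for each of these helicase genes, and the rise was 3.27-fold for Ddx58, 2.63-fold for Dhx58 and 1.72-fold for Ifih1. Zbp1 encodes a sensor of left-handed double-stranded nucleic acid that can start cell death through RIPK3 and MLKL. It had 9.79, 7.96 and 8.42 CPM in KO libraries, against 0.767, 1.39 and 1.18 CPM in WT libraries, a log2 fold change of 2.87 with SE 0.185 (edgeR, adjusted p = 2e-07). This was the largest rise of these 4 sensor genes, from a WT level near 1 CPM.

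The oligoadenylate synthetases make a second messenger when they bind double-stranded RNA, and their genes were expressed at low level. Oas1a (chromosome 5, 120896256 to 120907521, minus strand) had 19, 11 and 17 counts in KO libraries and 3, 0 and 1 counts in WT libraries. The groups did not overlap, with a log2 fold change of 3.25 with SE 0.632 (edgeR, adjusted p = 0.00084). That value was 4.53 without WT replicate 1 and 2.65 without WT replicate 2. Because Oas1a passed the low-count filter only through its KO libraries, a difference was built into its entry. Oas2 had 1, 6 and 3 counts in KO and 0 in every WT library, at least 3.07-fold higher against a WT floor of 3 counts for the whole group. Oas3 had 3, 5 and 13 counts in KO and 0, 1 and 0 in WT, a ratio of 19.4 with a 95% Clopper-Pearson counting interval of 3.11 to 801. Neither Oas2 nor Oas3 was tested, and Oas family members are similar enough in sequence that the counting could have split reads between them. The related genes Oasl1 and Oasl2, whose products carry ubiquitin-like domains, lie 11005 bases apart on chromosome 5. Oasl2 had 14.4, 14.9 and 14.5 CPM in KO libraries, against 5.55, 6.1 and 6.12 CPM in WT libraries, a log2 fold change of 1.22 with SE 0.0848 (edgeR, adjusted p = 3.6e-07). Oasl1 had 8.39, 7.92 and 7.57 CPM in KO libraries, against 6.32, 8.51 and 8.68 CPM in WT libraries, and these overlapped (log2 fold change -0.06 with SE 0.125; edgeR, adjusted p = 0.68).

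Of 8 antiviral effector genes 6 were called higher, against 37.7% of all tested genes. Of these 6, Mx1, Mx2 and Ifi44 passed the low-count filter only through their KO libraries, so a difference was built into their entry. The dynamin-like GTPase genes Mx1 and Mx2, neighbours on chromosome 16, were close to silent in WT. Mx1 had 5.02, 4.22 and 5.04 CPM in KO libraries, against 0.0451, 0.339 and 0.365 CPM in WT libraries, and Mx2, annotated as a polymorphic pseudogene in the reference, had 43, 47 and 33 counts in KO libraries and 0, 3 and 2 counts in WT libraries. The groups were apart for both genes. Mx1 had a log2 fold change of 4.10 with SE 0.323 (edgeR, adjusted p = 9.3e-07), and Mx2 one of 4.33, or 4.96 without WT replicate 2. Ifi44, which encodes an interferon-induced cytoplasmic protein, had 4.07, 3.51 and 3.07 CPM in KO libraries, against 0.271, 0.226 and 0.203 CPM in WT libraries. That is a 14.2-fold rise. Rsad2 encodes viperin, a radical enzyme that makes a chain-terminating nucleotide. It had 1.98, 2.34 and 2.64 CPM in KO libraries, against 0.632, 1.17 and 0.892 CPM in WT libraries, a log2 fold change of 1.27 with SE 0.240 (edgeR, adjusted p = 0.00069). Bst2, which encodes tetherin, a protein that holds budding virions at the cell surface, had 32.6, 28.7 and 34.4 CPM in KO libraries, against 14, 17.2 and 15.6 CPM in WT libraries and rose 1.94-fold.

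Adar, Eif2ak2 and Samhd1 had the smallest changes among the effector genes. Adar encodes the adenosine deaminase that edits double-stranded RNA, in a constitutive short form and an interferon-inducible long form that its count pools. It had 38.4, 40.8 and 39.2 CPM in KO libraries, against 28.2, 31.6 and 29.6 CPM in WT libraries, a log2 fold change of 0.33 with SE 0.0621 (edgeR, adjusted p = 0.00071) that did not pass the test against 1.5-fold. The annotation places 16.8% of its exonic sequence opposite Chrnb2, and whether the counting used strand is not stated. Eif2ak2, the gene of the double-stranded RNA kinase PKR, had 66, 61.8 and 56 CPM in KO libraries, against 57.4, 52.1 and 54.7 CPM in WT libraries. Those values overlapped, and the gene was not called (log2 fold change 0.09 with SE 0.0683; edgeR, adjusted p = 0.27). Samhd1, which encodes a deoxynucleotide triphosphatase that limits the dNTP supply for viral reverse transcription, had 91.2, 92.3 and 81.5 CPM in KO libraries, against 127, 118 and 118 CPM in WT libraries. All KO libraries lay below all WT libraries, a decrease of 1.44-fold with a log2 fold change of -0.53 with SE 0.0625 (edgeR, adjusted p = 2.1e-05). It did not pass the test against 1.5-fold (adjusted p = 0.95).

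The 3 member genes of the ISG15 system were all called higher, against 37.7% of all tested genes. ISG15 is a ubiquitin-like protein that is attached to other proteins after interferon treatment. Isg15 (chromosome 4, 156199424 to 156200818, minus strand) had 18.9, 18.4 and 18 CPM in KO libraries, against 5.24, 6.21 and 5.84 CPM in WT libraries, a log2 fold change of 1.60 with SE 0.0881 (edgeR, adjusted p = 6.6e-08). Usp18 encodes the protease that removes ISG15 and also damps IFNAR signalling. It had 52, 42 and 30 counts in KO libraries and 0, 11 and 7 in WT libraries, a log2 fold change of 2.57 with SE 0.503 (edgeR, adjusted p = 0.00087). It was 3.27 without WT replicate 2. Because Usp18 passed the low-count filter only through its KO libraries, a difference was built into its entry. Trim25, the ubiquitin ligase that acts with RIG-I, had 17.2, 17.4 and 16.2 CPM in KO libraries, against 6.63, 5.42 and 5.6 CPM in WT libraries and rose 2.74-fold. From the wider list, the activating enzyme gene Uba7 rose (2.64) and the conjugating enzyme gene Ube2l6 rose (0.96) on the log2 scale. The ligase gene Herc6 of the same list was not called (-0.16), and its KO and WT values overlapped. All of these wider-list genes were named after their values were seen.

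The guanylate-binding proteins, GTPases that attack the vacuoles of intracellular pathogens, made up the most increased group of members. Gbp2 (chromosome 3, 142620602 to 142638008, plus strand) had 28.1, 25.9 and 27.1 CPM in KO libraries, against 1.44, 1.02 and 1.22 CPM in WT libraries, a log2 fold change of 4.39 with SE 0.118 (edgeR, adjusted p = 7.3e-10). Gbp3 had 12.3, 11.9 and 11.3 CPM in KO libraries, against 0.451, 0.904 and 0.649 CPM in WT libraries. Gbp7, of which 11.3% of the exonic sequence is shared with the gene model Gm43802, had 12.7, 9.58 and 9.43 CPM in KO libraries, against 0.632, 0.716 and 0.770 CPM in WT libraries. No WT library reached 2 CPM for any of them, while no KO library was below 9 CPM. The rise was 21-fold for Gbp2, 16.4-fold for Gbp3 and 14.1-fold for Gbp7. Gbp7 and Gbp3 lie 9876 bases apart, and Gbp3 and Gbp2 47392 bases apart. Members of this family share sequence, so reads may have been split between them.

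The ADP-ribosyltransferase group also lies in 1 locus. Parp9 and Parp14 encode macrodomain ADP-ribosyltransferases and Dtx3l the ubiquitin ligase that pairs with PARP9. Parp9 (chromosome 16, 35938470 to 35972605, plus strand) and Dtx3l (35926511 to 35939151, minus strand) run in opposite directions and overlap by 682 bases, and Parp14 ends 54966 bases away. Parp9 had 36.6, 34 and 34.3 CPM in KO libraries, against 6.72, 7.72 and 8.56 CPM in WT libraries. Parp14 had 13.7, 13.9 and 13.3 CPM in KO libraries, against 2.39, 3.5 and 3.45 CPM in WT libraries. For Dtx3l the levels were 21.4, 22.7 and 22.3 CPM in KO libraries, against 5.87, 4.82 and 5.88 CPM in WT libraries. The groups were apart for all 3 genes. Their changes were alike in size, with log2 fold changes of 2.11 for Parp9 (SE 0.0885), 2.04 for Parp14 (SE 0.129) and 1.93 for Dtx3l (SE 0.0936). If the counting ignored strand, the shared bases would count for both Parp9 (9.4% of its exonic sequence) and Dtx3l (8.0%).

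Of the 5 remaining induced genes 4 were called higher, against 37.7% of all tested genes. Ifi27 and Ifi27l2a encode small hydrophobic membrane proteins and are 1927 bases apart on chromosome 12. Ifi27 had 68.8, 73.2 and 65.5 CPM in KO libraries, against 18.3, 20.3 and 18.5 CPM in WT libraries and rose 3.44-fold. Ifi27l2a had 6.6, 6.6 and 7.45 CPM in KO libraries, against 0.587, 0.904 and 0.852 CPM in WT libraries and rose 8.23-fold, so the less expressed neighbour had the larger ratio. Ifi35, which encodes a partner of NMI, had 29.9, 32.2 and 36.8 CPM in KO libraries, against 13.1, 17.2 and 14.6 CPM in WT libraries, a log2 fold change of 1.06 with SE 0.111 (edgeR, adjusted p = 8.9e-06), with 16.8% of its exonic sequence opposite the gene model Gm11626. Rtp4, a receptor-transporting protein gene, had 3.56, 4.53 and 4.11 CPM in KO libraries, against 1.94, 1.92 and 1.78 CPM in WT libraries and rose 2.04-fold, and 13.9% of its exonic sequence is shared with the gene model Gm45338. Xaf1, a pro-apoptotic gene that binds XIAP, had 10.5, 12.1 and 11.1 CPM in KO libraries, against 19.5, 7.91 and 9.98 CPM in WT libraries. WT replicate 1 was above every other library of either group while the other WT libraries were below every KO library, and the log2 fold change of -0.22 with SE 0.269 (edgeR, adjusted p = 0.48) became 0.23 without it (edgeR adjusted p = 0.1).

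**Figure D3:**
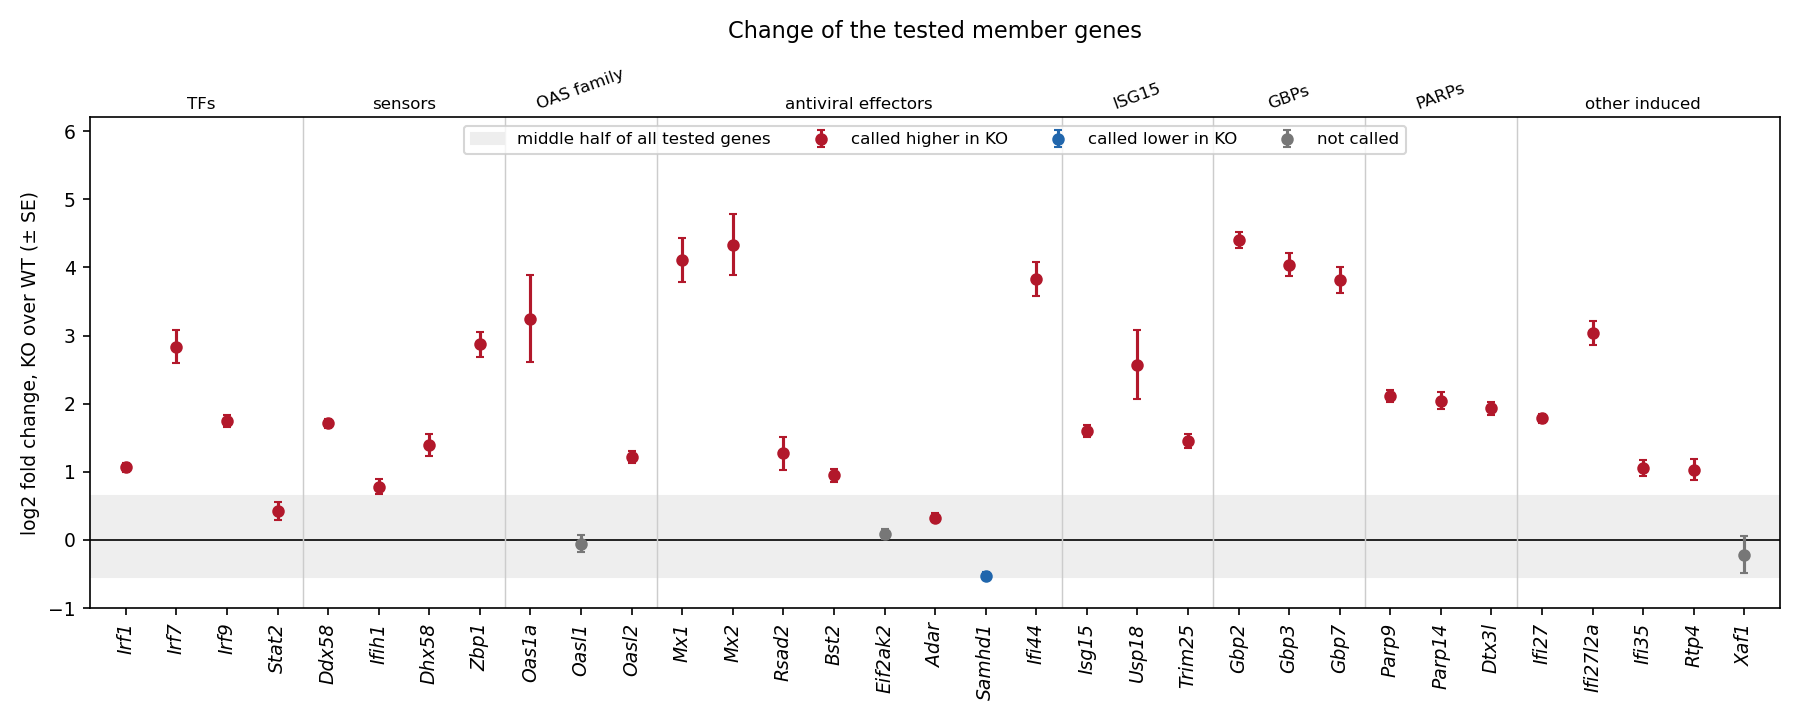
Log2 fold change, KO over WT, of the 33 tested members, with bars of 1 standard error from the edgeR fit; the grey band holds the middle 50% of all tested genes. The 3 guanylate-binding protein genes lie between 3.82 and 4.39, and Samhd1 at -0.53 is the member called lower.

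Members can be compared with each other once counts are divided by exonic length, as CPM per kilobase (kb). Ifi27 was highest in KO at 47.2 ± 2.62 CPM per kb, followed by Bst2, Isg15, Ifi35 and Ifi27l2a, and the 5 did not overlap between neighbours in this order. In WT the highest were Bst2 at 17.3 ± 1.74 CPM per kb, Samhd1 at 13.2 ± 0.589 and Ifi27 at 13 ± 0.750 (SD, n = 3 libraries each), and Samhd1 and Ifi27 differed there by less than their SDs. Over the whole order, 17 of 34 neighbouring pairs had overlapping library ranges in KO and 25 of 34 in WT, so much of the order was not resolved. Gbp2 was number 8 in KO and number 22 in WT, and Samhd1 was number 9 in KO and number 2 in WT. Oas3 and Oas2 came last in both groups.

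**Figure D4:**
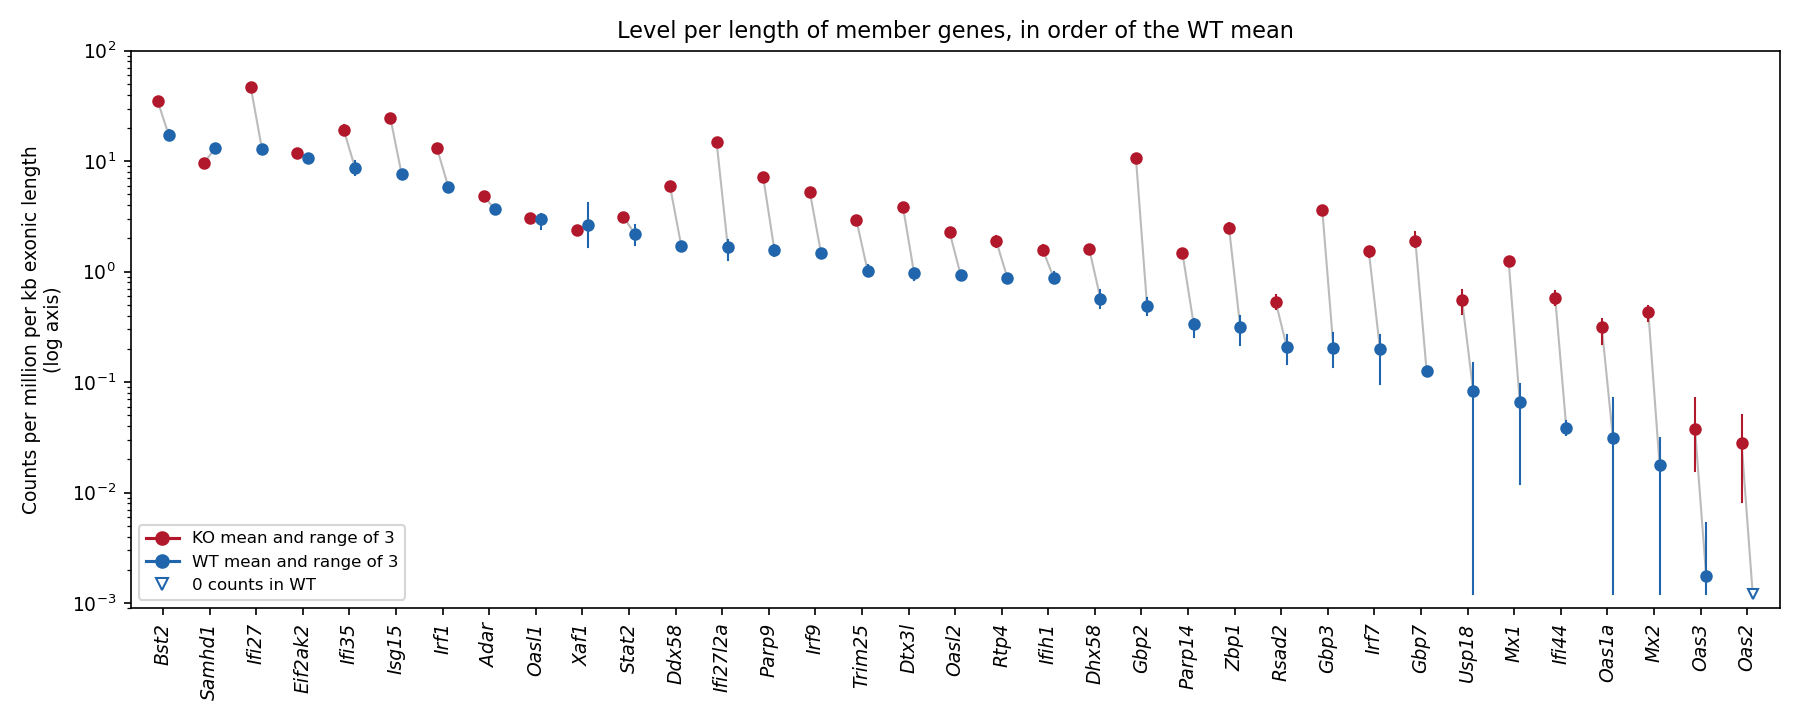
Mean CPM per kb of exonic length for each member on a log axis, KO at the left and WT at the right of each gene, ordered by the WT mean, with bars over the range of 3 libraries; a bar that reaches the foot of the axis includes a library with 0 counts. Gbp2 stands at 10.8 in KO and 0.487 in WT, and Samhd1 at 9.66 in KO and 13.2 in WT.

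Further genes of the pathway came from 3 lists, also chosen with earlier results of these data known. Interferon genes themselves had almost no reads. Ifnb1 and Ifng, named after their values were seen, show this. Ifnb1 had 0, 0 and 2 counts in KO libraries and 1, 0 and 0 in WT, and Ifng had 2, 5 and 1 counts in KO and 0 in every WT library. Of 27 ligand, receptor and JAK-STAT genes 20 had a row and 16 were tested, with 10 higher, 3 lower and 3 not called in KO and a median log2 fold change of 0.37. The 13 called of 16 tested are close to the 75.1% called over all tested genes. By direction they leaned to higher, with 10 higher and 3 lower, while 37.7% of all tested genes were higher and 37.5% lower. The type I receptor genes Ifnar1 and Ifnar2 rose by 0.21 and 0.47 on the log2 scale, and Ifngr1 by 0.59, whereas Ifngr2 was not called (0.06, or 0.13 and called with library totals). Il10rb, a receptor chain shared by interferon-lambda and interleukin-10, had 18.9, 17.1 and 17.9 CPM in KO libraries, against 8.44, 7.08 and 8.23 CPM in WT libraries. Among the kinases Tyk2 rose (log2 fold change 1.33), Jak1 rose (0.49) and Jak2 fell (-0.48), and the phosphatase genes Ptpn11 (-0.51) and Ptpn2 (-0.41) fell. Of these receptor, kinase and phosphatase genes, only Il10rb and Tyk2 passed the test against 1.5-fold. Stat3, which mainly serves interleukin-6 family cytokines, had 225, 222 and 231 CPM in KO libraries, against 69, 76.9 and 76.4 CPM in WT libraries.

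Of 30 nucleic acid sensing genes listed, 29 had a row and 28 were tested, with 11 higher, 11 lower and 6 not called, and a median log2 fold change of -0.04. These counts are near the background of 37.7% higher and 37.5% lower over all tested genes. Genes that rose included Ifi203, Ticam1 and Tlr3. Ifi203, of the DNA-binding Ifi200 family, rose by 3.12 on the log2 scale. Tlr3, the endosomal receptor for double-stranded RNA, had 13.4, 12.1 and 10.1 CPM in KO libraries, against 5.14, 4.41 and 4.83 CPM in WT libraries. Its adaptor gene Ticam1 had 24.7, 24.9 and 26.5 CPM in KO libraries, against 7.85, 6.97 and 7.06 CPM in WT libraries. Genes that fell included a receptor for single-stranded RNA, Tlr7, and the cytosolic DNA sensor genes Cgas and Aim2. Tlr7 had 0.770, 0.867 and 0.931 CPM in KO libraries, against 4.51, 5.88 and 5.6 CPM in WT libraries, a log2 fold change of -2.71 with SE 0.177 (edgeR, adjusted p = 2.2e-07). Cgas had 16.4, 15 and 14.7 CPM in KO libraries, against 39.9, 34.1 and 36.1 CPM in WT libraries, and all KO libraries lay far below all WT libraries (log2 fold change -1.33). Aim2, near 1 CPM, fell by 1.12 on the log2 scale. The cGAS adaptor gene Tmem173 (STING) was not called (0.11). In the arm below the RNA helicases, Mavs rose slightly (0.22; not called without WT replicate 1), Tbk1 (-0.20; not called with library totals) and Irf3 (-0.42) fell, and none of these passed the test against 1.5-fold. Ikbke, which encodes a kinase related to TBK1 and was named after its values were seen, rose (1.18; edgeR, adjusted p = 3e-06) and passed it. Ripk3, which acts with ZBP1, fell (-0.84).

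Most of the further interferon-induced genes were also higher in KO. Because earlier results of these data were known when the list was chosen, its counts are not an independent test. Of 66 listed 58 were tested, with 49 higher, 4 lower and 5 not called and a median log2 fold change of 1.39, unchanged when Gbp4 and Ifitm1, at 0 counts in every WT library, were set to their lower bounds. Over all tested genes 37.7% were higher and 37.5% lower. Of the 49 listed genes that passed the filter in WT alone, 40 were called higher, 4 lower and 5 not called, against 34.7% higher and 40.9% lower over all genes that did. Ifitm1, one of the membrane proteins that block virus entry, had 32, 27 and 29 counts in KO and 0 in WT, at least 27.1-fold higher against the same WT floor. Gbp9 rose (log2 fold change 3.66), as did Gbp5 (3.02) and Irgm2 (3.18), an immunity-related GTPase gene. Gbp6 (2.13) and Gbp10 (1.41) rose less. Gbp5 and Gbp10, under 0.382 CPM in every WT library, passed the low-count filter only through their KO libraries. The genes that fell were Slfn5 (-1.26), Slfn9 (-1.15), Nampt (-0.82) and Cd274 (-0.50). Slfn9 had 60.0, 57.9 and 56.5 CPM in KO libraries, against 122, 115 and 129.7 CPM in WT libraries. Cd274, which encodes PD-L1, was near the threshold (edgeR adjusted p = 0.031) and lost its call under 10 of 13 alternatives.

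**Figure D5:**
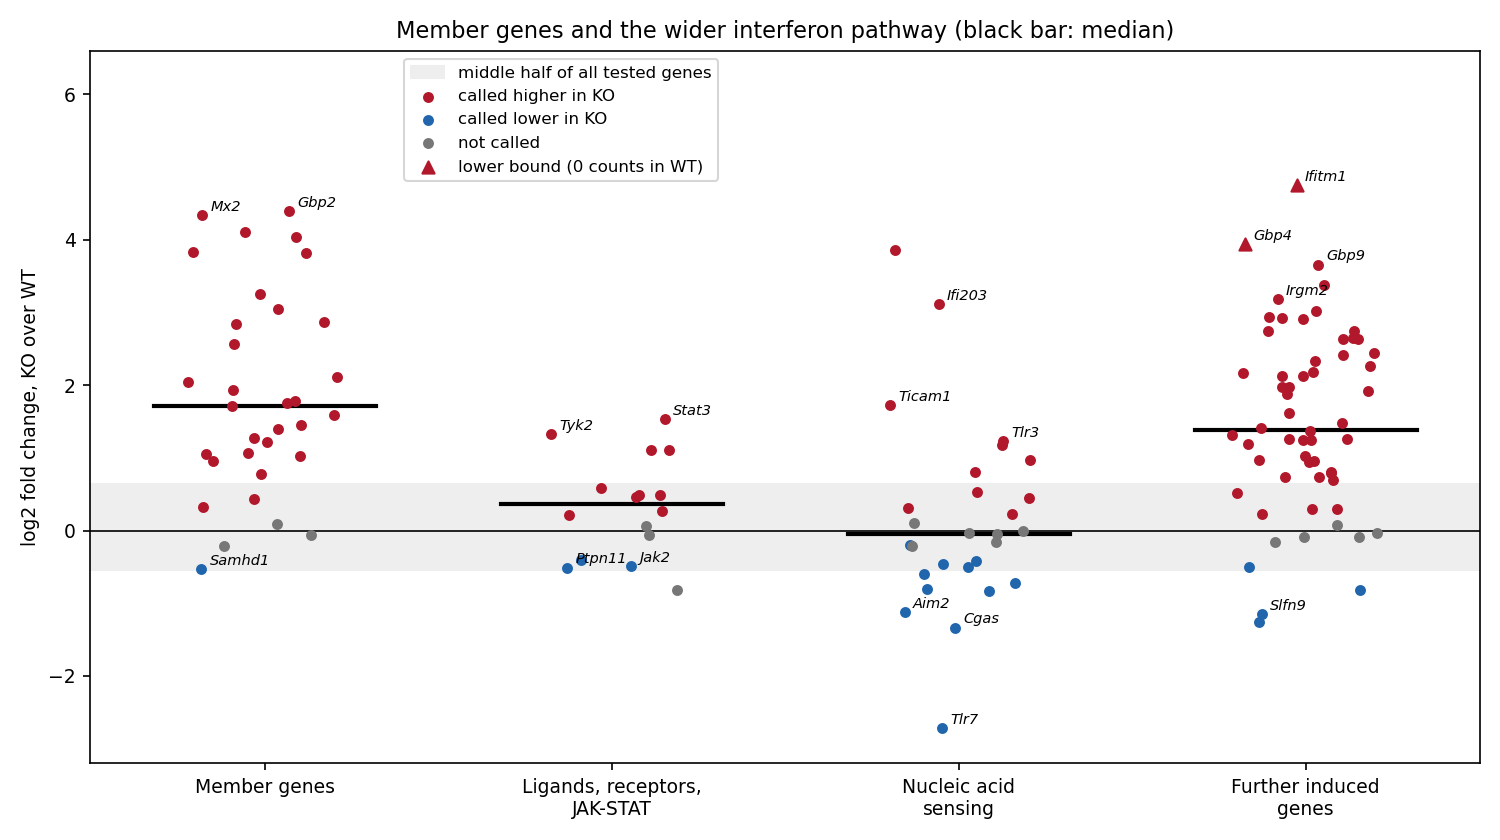
Log2 fold change, KO over WT, of every tested gene in the member list and the 3 pathway lists; the grey band holds the middle 50% of all tested genes, black bars are medians and triangles are lower bounds for genes with 0 counts in WT. The medians are 1.71 for the members, 0.37 for ligands, receptors and JAK-STAT genes, -0.04 for nucleic acid sensing and 1.39 for further induced genes.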

How the data were processed

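The authors deposited raw counts of reads per Ensembl gene, 1 file per library, made from poly(A)-selected, directional libraries sequenced on an Illumina NextSeq, per the labels' protocols. The submitters' processing notes name STAR 2.7.10b and GRCm38. The sources used here do not give the counting program, its annotation, its strand setting or its handling of multiply mapped reads. The values are whole numbers with a different total in each library and were used unchanged. GENCODE M21 gave symbols, positions and exonic lengths for 28230 of 28293 identifiers, and RefSeq (GRCm38.p6) gave promoter sequences.

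The comparison of KO with WT used edgeR 4.0.16 (R 4.3.3): TMM normalization, the filterByExpr low-count filter (a count of about 10, or 0.382 CPM, in 3 libraries), a quasi-likelihood test and Benjamini-Hochberg adjustment over all tested genes. Standard errors are the log2 fold change divided by the square root of the test's F. CPM and CPM per kb use library totals without TMM. Where a group had 0 counts in all libraries, 3 counts for the whole group served as its floor. Floors and intervals cover counting error only. Gbp4 and Ifitm1 were plotted at that bound. Named genes are Tmpo, all 35 members, up to 4 called genes with at least 1 CPM per direction and pathway list, the receptor, kinase and STAT genes tested, and 5 signalling genes (Mavs, Irf3, Tbk1, Cgas, Tmem173). Some genes that this rule names are not reported here. The members and lists were chosen with earlier results of these data known. Symbols not in M21 were looked up as RefSeq synonyms, so Mb21d1 is given as Cgas. The fits were checked on simulated counts with the mean levels and sizes of these libraries. Known folds were given to a small part of the genes, so the check does not cover a comparison with most genes called. Alternatives were DESeq2 size factors, library totals, no low-count filter, the DESeq2 1.42.0 Wald test, limma-voom (limma 3.58.1), glmTreat against a fold of 1.5, the replicate number as a block, and leaving out each library. Plots came from matplotlib 3.10.9 in Python 3.11.15.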

Additional observations from a re-analysis of the deposited data

How the results depend on the processing

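The 29 members called higher stayed called higher under 12 of the 13 alternatives, and 27 of them in the test against a fold of 1.5. Over the 33 tested members and 13 alternatives, 423 of 429 values kept their direction and their side of the threshold, 3 lost the call and 3 reversed. The test against 1.5-fold, which asks for a larger change by construction, left 0 members called lower, 5621 of all tested genes called, 4 ligand, receptor and JAK-STAT genes and 11 nucleic acid sensing genes. The calls it ended among the members were those of Stat2, Adar and Samhd1. Oasl1, never called, had a log2 fold change of 0.0186 with library totals and ranged from -0.2073 to 0.0093 with 1 library left out, turning positive without WT replicate 2. Xaf1 ranged from -0.4619 to 0.234 with 1 library left out, turning positive without WT replicate 1. The cause was not tested. Leaving out 1 library at a time gave 29 members higher and 1 lower each time, 10791 to 11441 of all genes called and -1.06 to -0.99 for Tmpo. Without a low-count filter Oas2 and Oas3 were tested too and 31 members were called higher. Ifngr2 was called with library totals, Tbk1 lost its call there, and Cd274 lost its call in 10 of the 13 alternatives. Same-numbered KO and WT libraries did not deviate together in every pair (correlations 0.147, -0.115 and 0.159). So few values cannot show whether the numbers pair the samples. With the number as a block 29 members were called higher, 1 lower and 11697 of all genes. With 3 libraries a group and under 1 CPM in WT, the folds of Oas1a, Mx2 and Usp18 are the least precise.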
